A study of Arabidopsis thaliana with 14 samples.

Results

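RNA sequencing compared rosette leaves of Arabidopsis thaliana 24 h after injection of a silk microneedle loaded with the gibberellin GA3 with leaves 24 h after injection of an empty silk needle (mock). The 6 libraries of the comparison, 3 with GA3 and 3 with mock, were chosen by their labelled treatment and time out of 14 libraries in the series. All plants carried the ft-10 allele of FT, which encodes florigen, and were 30 days old, grown in soil at 22 °C with 16 h of light and 8 h of dark. The loaded needles carried GA3 at 15 mM, with silk and GA3 in a mass ratio of 60 mg to 5.19 mg, and the needle was taken out before the leaf was frozen. The other libraries came from untreated leaves at 0 h (n = 3) and from leaves with GA3 needles at 3 h (n = 3) and 168 h (n = 2). Because needle, silk and harvest time were shared, GA3 against mock at 24 h asked what the hormone in the needle added.

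Gibberellins are diterpene hormones that promote stem and leaf growth, germination and flowering. They bind the GID1 receptors, which then recruit the DELLA repressors to the F-box protein SLY1 for degradation. DELLA proteins act with partner transcription factors, and in their presence genes for GID1 receptors and for gibberellin synthesis are transcribed, so that the pathway is under negative feedback in Arabidopsis.

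The 6 libraries held 20448913 to 24357689 reads, and 94% to 95.8% of them fell in annotated genes. The unit of all levels is CPM, read counts scaled to a fixed total per library with a correction for composition (TMM). In every sentence with values by library, the 3 values of a group follow replicates 1 to 3, and means carry the SD of n = 3. Log2 fold changes are fitted values ± SE, GA3 over mock. They are DESeq2's where given with its calls, unless edgeR is named, and edgeR's elsewhere. GA3 replicate 1 stood apart from the other 5 libraries on the first principal component of the 6 (30.2% of the variance, score -81.9 against -7.68 to 42.6). Its levels differed from the mean of the other GA3 libraries by a median of 0.284 (log2), while each of the other 5 libraries differed from the rest of its own group by 0.191 to 0.249. On the second component (24.7%), mock replicate 3 (-54.6) lay farthest from GA3 replicates 2 and 3 (42.9 and 47). Correlations of log2 CPM were alike within groups (Pearson's r of 0.942 to 0.968) and between them (0.939 to 0.965). In these whole-leaf samples, fewer cells of a type and less RNA per cell cannot be told apart. The label of rosette leaf was checked against markers. Of 8 shoot meristem and flower markers 0 were high enough to test, with summed levels of 0.192 to 0.84 CPM with GA3 and 0.045 to 0.592 CPM with mock, and STM, WUS and CLV3 had 0 reads in the 6 libraries. Of 5 seed markers 0 could be tested, with summed levels of 0 to 0.048 CPM and 0 to 0.108 CPM, while the Rubisco small subunit gene RBCS3B stood at 3603 to 8688 CPM. Root markers were not absent: 3 of 6 could be tested, and their sums are given below with the leaf cell type markers.

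No gene passed edgeR's quasi-likelihood test at an adjusted p of 0.05 (Benjamini-Hochberg, 20077 genes, smallest adjusted p 0.0853). That was 0% higher and 0% lower, while 735 genes (3.66%) stood higher and 587 (2.92%) lower at an unadjusted p under 0.05. All 3 GA3 libraries lay above all 3 mock libraries for 1409 genes (7.02%) and below them for 1387 (6.91%). The median size of the fitted change was 0.22 (log2). DESeq2, a second count model run on the same 14 libraries, called 19 genes higher (0.0923%) and 30 lower (0.146%) of 20580. All 49 were among the genes whose groups did not overlap. For these 49, edgeR and limma-voom gave adjusted p of 0.0536 to 0.999 over their alternatives. limma-voom called 0 genes, with 671 genes higher and 535 lower at an unadjusted p under 0.05. Since the tools differ, words of change below are used only for DESeq2's calls, each named as such, and every other value is a description.

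**Figure D1:**
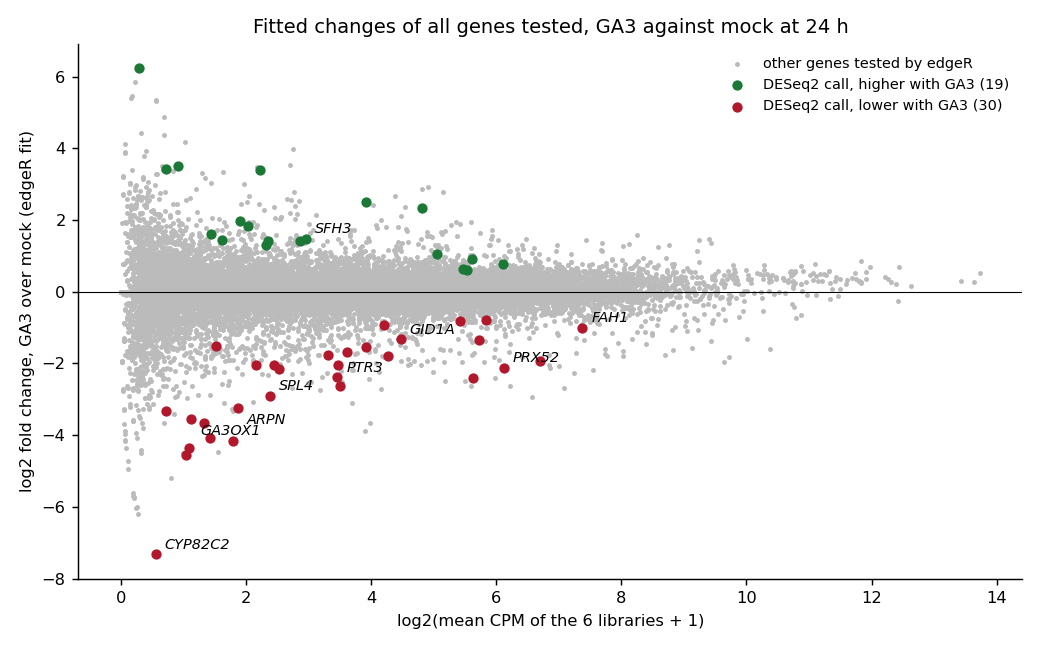
Fitted log2 fold change (y axis, edgeR, GA3 over mock) against log2 of the mean CPM of the 6 libraries plus 1 (x axis) for the 20077 genes tested, a point per gene, with the 19 genes DESeq2 called higher in green and the 30 it called lower in red. Most points lie within 1 log2 unit of 0, and the called genes reach from low to high expression.

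Of the 49 DESeq2 calls, 7 were called whichever of the 6 libraries was left out, 2 higher and 5 lower, and they are described first. The largest loss came without mock replicate 3, when 10 of the 49 remained, and the smallest without mock replicate 1, when 35 remained. An eighth call, AT5G62720, annotated as an HPP family membrane protein, was higher with GA3 (0.92 ± 0.19, adjusted p = 0.00332, with 0.345 to 0.999 in edgeR and limma-voom) and missed the threshold only without mock replicate 3 (adjusted p = 0.101). Of the 49 called genes, 27 have a symbol in the reference.

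ARPN (AT2G02850), which encodes a plantacyanin, a small blue copper protein of the cell wall, had the smallest p of all genes. It stood at 0.605, 0.367 and 0.528 CPM in the GA3 libraries and at 6.18, 3.82 and 4.28 CPM in the mock libraries. The lowest mock library was thus several-fold above the highest GA3 library, and the untreated leaves lay between them at 2.8 ± 0.976 CPM. DESeq2 called it lower (-3.23 ± 0.45, adjusted p = 1.41e-08), while edgeR and limma-voom gave adjusted p of 0.0536 to 0.935 over their alternatives.

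GID1A (AT3G05120), the gene of a gibberellin receptor, was measured at 11.2, 11.8 and 13.1 CPM with GA3 and at 39.4, 25.9 and 25.4 CPM with mock. The GA3 libraries were close together and far below all mock libraries. DESeq2 called it lower (-1.32 ± 0.24, adjusted p = 0.000244, with 0.298 to 0.935 in edgeR and limma-voom). Untreated leaves held 19.9 ± 1.77 CPM, below mock and above GA3 at 24 h.

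SPL4 (AT1G53160), a transcription factor that promotes the floral transition, stood at 0.558, 1.26 and 1.15 CPM with GA3 and at 9.73, 7.47 and 5.04 CPM with mock. Again the groups did not overlap, and mock resembled untreated leaves (8.53 ± 2.62 CPM). DESeq2 called it lower (-2.89 ± 0.49, adjusted p = 2.98e-05, with 0.175 to 0.935 in edgeR and limma-voom).

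PTR3 (AT5G46050), a peptide transporter known to respond to wounding, stood at 2.88, 2.52 and 4.22 CPM with GA3 against 13.6, 13 and 23.7 CPM with mock. Here the GA3 libraries were near the untreated leaves (1.93 ± 1.24 CPM) and the mock libraries well above them. DESeq2's log2 fold change was -2.37 ± 0.44 (adjusted p = 0.000244, with 0.345 to 0.999 in edgeR and limma-voom). The fifth lower gene, AT5G56840, is annotated as a myb-like transcription factor and was low in all GA3 libraries (0.0465, 0.0525 and 0.192 CPM against 4.3, 1.24 and 0.855 CPM). Its DESeq2 value of -4.44 ± 0.92 (adjusted p = 0.00343, with 0.418 to 0.999 in edgeR and limma-voom) was -5.43 without GA3 replicate 3 and -3.40 without mock replicate 1.

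Among genes higher with GA3, AT1G71695, annotated as a peroxidase, stood at 37.4, 46.6 and 46.4 CPM against 20.3, 25.3 and 17 CPM with mock. All GA3 libraries exceeded all mock libraries, and DESeq2 called it higher (1.07 ± 0.20, adjusted p = 0.000244, with 0.298 to 0.999 in edgeR and limma-voom). SFH3 (AT2G21540), a Sec14-like phospholipid transfer protein, stood at 7.35, 9.29 and 13.3 CPM against 3.23, 4.09 and 3.38 CPM. Its groups were also apart, with an edgeR value of 1.49 ± 0.25 and a DESeq2 call (adjusted p = 0.000384, with 0.2 to 0.999 in edgeR and limma-voom). The SFH3 locus held 806 reads on the opposite strand in the 6 libraries beside 613 with GA3 and 211 with mock on its own, so transcripts of both strands were read there.

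In the other groups these genes went different ways. SPL4 was as low 3 h after the GA3 needle (0.909 ± 0.337 CPM) as at 24 h, and stood at 5.36 ± 3.36 CPM (SD, n = 2) at 168 h. SFH3 was highest at 3 h (18.8 ± 2.09 CPM) and lowest at 168 h (0.362 ± 0.0823 CPM, n = 2). No mock library of those times was analysed here, so needle and hormone cannot be told apart there.

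**Figure D2:**
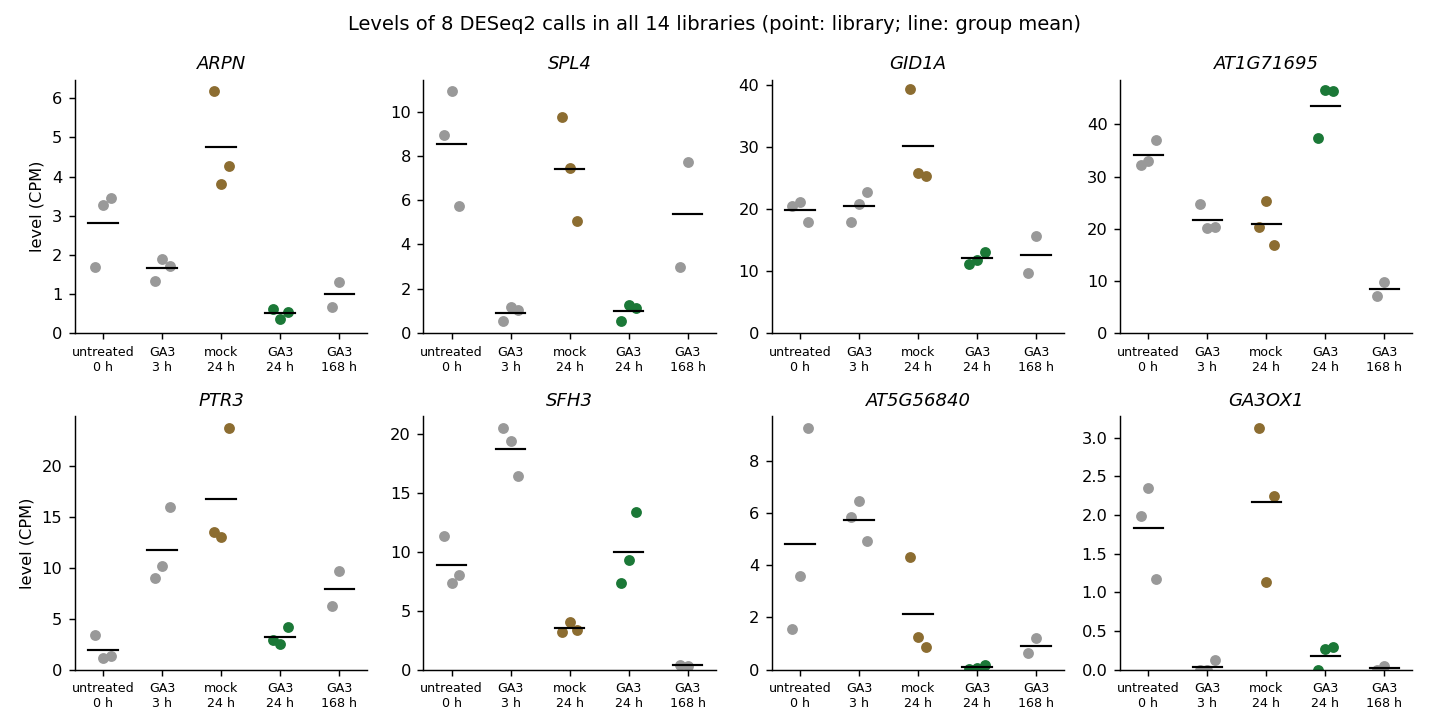
Levels in CPM (y axis, from 0) of the 7 genes DESeq2 called whichever library was left out, and of GA3OX1, in all 14 libraries by group (x axis), a point per library with the group mean as a line. Mock and GA3 at 24 h do not overlap in any panel.

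The start regions of GID1A and ARPN are shown because they were lower with GA3 whichever library was left out, and that of GA3OX1 because its product makes the active hormone. Each line holds the 250 bases before the annotated start of the gene (RefSeq, TAIR10.1), 5′ to 3′ on the gene's strand. Capitals mark matches on either strand to CACGTG (the G-box), TTTGTC (the core bound by IDD proteins, partners of DELLA), TAACAAA (the gibberellin response element of cereals) or TTGAC (the W-box core).
GID1A: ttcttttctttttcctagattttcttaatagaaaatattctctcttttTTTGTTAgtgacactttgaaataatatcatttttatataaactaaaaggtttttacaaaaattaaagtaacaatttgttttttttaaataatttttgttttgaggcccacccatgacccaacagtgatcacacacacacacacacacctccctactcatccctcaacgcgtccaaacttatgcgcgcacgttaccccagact
GA3OX1: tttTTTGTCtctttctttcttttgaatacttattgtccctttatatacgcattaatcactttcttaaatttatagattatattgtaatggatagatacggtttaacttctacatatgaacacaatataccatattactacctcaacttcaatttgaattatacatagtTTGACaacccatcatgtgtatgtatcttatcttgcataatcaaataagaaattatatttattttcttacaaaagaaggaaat
ARPN: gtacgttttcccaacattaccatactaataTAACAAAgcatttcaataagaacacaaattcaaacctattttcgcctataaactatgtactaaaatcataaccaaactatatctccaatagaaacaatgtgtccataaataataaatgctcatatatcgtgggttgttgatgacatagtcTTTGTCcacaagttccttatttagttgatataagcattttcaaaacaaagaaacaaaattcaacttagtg

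The GID1A stretch is chr3:1430113-1430362 on the plus strand, that of GA3OX1 is chr1:5346343-5346592 on the minus strand and that of ARPN is chr2:827995-828244 on the minus strand. GID1A held TAACAAA on the reverse strand, its first base 202 bases before the start (position -202). GA3OX1 held TTTGTC at -247 and TTGAC at -82, and ARPN held TAACAAA at -220 and TTTGTC at -70. Over all 27443 protein-coding genes, windows from 250 bases before to 50 after the start held CACGTG in 7.68%, TTTGTC in 28.2%, TAACAAA in 18.4% and TTGAC in 50.5%. In the same windows of the 30 genes DESeq2 called lower the shares were 3.33%, 40%, 16.7% and 50%, and in the 18 protein-coding genes it called higher 5.56%, 44.4%, 16.7% and 50%. These matches are letters in a window, and binding was not measured.

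Genes of gibberellin synthesis lay in both directions. Of 14 members 8 were tested, with 4 fits above 0 and 4 below (49.6% of all genes lay above 0) and a median of -0.04, beside -0.00 over all genes. GA3OX1 (AT1G15550), the 3-oxidase that makes bioactive gibberellin, stood at 0, 0.262 and 0.288 CPM with GA3 and at 3.12, 1.13 and 2.25 CPM with mock, in 11 and 129 reads. The groups were apart, and untreated leaves lay within the mock range (1.84 ± 0.608 CPM). DESeq2 called it lower (-3.56 ± 0.83, adjusted p = 0.0185, with 0.534 to 0.999 in edgeR and limma-voom), at -2.96 and adjusted p = 0.0591 without GA3 replicate 1. The call was also lost without GA3 replicate 2, mock replicate 1 or mock replicate 3, with adjusted p up to 0.474. The related GA3OX2 went the other way, with 3.25, 2.62 and 0.624 CPM against 0.215, 0.753 and 0.405 CPM. Its groups overlapped, as GA3 replicate 3 lay below mock replicate 2 (2.23 ± 0.94, unadjusted p = 0.0351 in edgeR).

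GA20OX1, the 20-oxidase of the step before, had 0.744, 0.262 and 0.24 CPM with GA3 and 3.44, 0.645 and 1.4 CPM with mock. Mock replicate 1 was the highest, and mock replicate 2 lay within the GA3 range (-2.11 ± 0.83, with -1.28 without mock replicate 1 and -2.83 without GA3 replicate 1). GA20OX2 and GA20OX3 had 0 reads with GA3 and 7 each with mock, at least 2.41-fold lower against a floor of 3 reads over the group. Earlier in the pathway, the ent-kaurene oxidase gene AT5G25900, whose symbol GA3 is also the hormone's name, stood at 13.4, 13.8 and 14.7 CPM with the hormone and at 24.6, 24.5 and 23.2 CPM with mock. This was the tightest separation of the list (-0.79 ± 0.22, unadjusted p = 0.00349 in edgeR), and DESeq2 did not call it (adjusted p = 0.182). The ent-kaurene synthase gene GA2 (AT1G79460), of the step before it, had 3.58, 5.41 and 3.26 CPM against 0.592, 2.58 and 2.02 CPM, all GA3 libraries being above all mock libraries (1.23 ± 0.49). The ent-kaurenoic acid oxidase KAO2 differed little, at 17.3, 19 and 14.6 CPM against 16.9, 16.4 and 12.6 CPM.

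Genes of gibberellin inactivation had fits above 0 where they were tested. GA2OX3, GA2OX8 and ELA1 had some reads but were too low to test, GA2OX8 with 0 reads with GA3 and 3 with mock. Of 11 members 4 were tested and all 4 had fits above 0, with a median of 1.05 (0.70 to 1.67 without 1 library and 0.35 to 1.41 under the other alternatives), and 4 had 0 reads in both groups. GA2OX1 (AT1G78440, ATGA2OX1 in the reference), a 2-oxidase that deactivates gibberellin, stood at 2.05, 0.945 and 0.528 CPM with GA3 and at 0, 0.108 and 0 CPM with mock, 73 reads against 2. The groups were apart, and the ratio of 35.3 had a 95% exact counting interval of 9.43 to 297, which leaves out the spread between libraries. Both mock reads lay in replicate 2, and the fitted 4.88 was 7.67 without it and 4.21 without GA3 replicate 1. GA2OX2 had 4.14, 6.3 and 7.68 CPM against 1.99, 5.38 and 2.61 CPM, with an overlap through mock replicate 2. GAMT2, a methyltransferase acting on gibberellins, had 2.51, 0.997 and 1.2 CPM against 1.51, 0.43 and 0.09 CPM, also overlapping. GA2OX6 was high only in GA3 replicate 3 (8.73 CPM, against 2.62 to 3.17 CPM in the other 5 libraries).

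All 3 receptor genes had fits below 0. Beside GID1A, GID1B stood at 3.49, 1.21 and 2.5 CPM against 6.08, 4.2 and 5.31 CPM, apart from mock (-1.11 ± 0.43, unadjusted p = 0.024 in edgeR). GID1C had 11, 9.23 and 13.5 CPM against 13.3, 14.2 and 13.2 CPM, with an overlap through GA3 replicate 3. Whether the receptors differed from each other in their change was not tested. SLY1, the F-box protein that takes DELLA proteins to degradation, stood at 6.32, 8.24 and 8.16 CPM against 12.8, 11.1 and 11.8 CPM. Its libraries were apart and even within each group (-0.65 ± 0.17, unadjusted p = 0.00195 in edgeR, DESeq2 adjusted p = 0.0995). The SLY1 locus held 382 reads on the opposite strand beside 463 with GA3 and 707 with mock on its own.

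The DELLA genes did not all lie on 1 side, with fits above 0 for 4 and below 0 for RGL3, whose fit was 0.46 without mock replicate 1. RGL1 stood at 21.3, 19.1 and 24.9 CPM with GA3 against 9.95, 15.5 and 11.9 CPM with mock, with no overlap (0.81 ± 0.35, unadjusted p = 0.0405 in edgeR). RGA1, the RGA gene, had 103, 91.6 and 63.3 CPM against 51.4, 76.2 and 47.6 CPM, and GAI 39.7, 37.4 and 55 CPM against 23.9, 33.4 and 38.3 CPM. In both genes the highest mock library exceeded the lowest GA3 library. RGL2 was higher in every GA3 library but rested on GA3 replicate 1 (22.4 CPM, against 1.94 and 2.98 CPM in the other GA3 libraries and 1.44 to 1.67 CPM with mock), and its fitted 2.58 was 0.70 without that library. RGL3 had 4.79, 2.83 and 5.47 CPM against 12.3, 3.93 and 2.43 CPM, with overlapping groups (-0.50 ± 0.67). The O-GlcNAc transferase SEC and the O-fucosyltransferase SPY, which modify DELLA proteins, overlapped between groups (SEC 110.1 to 142 CPM and SPY 31 to 47.8 CPM over the 6 libraries). Over the 11 tested genes of receptors, DELLA proteins and their degradation the median was -0.27, and it was 0.17 without mock replicate 1.

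**Figure D3:**
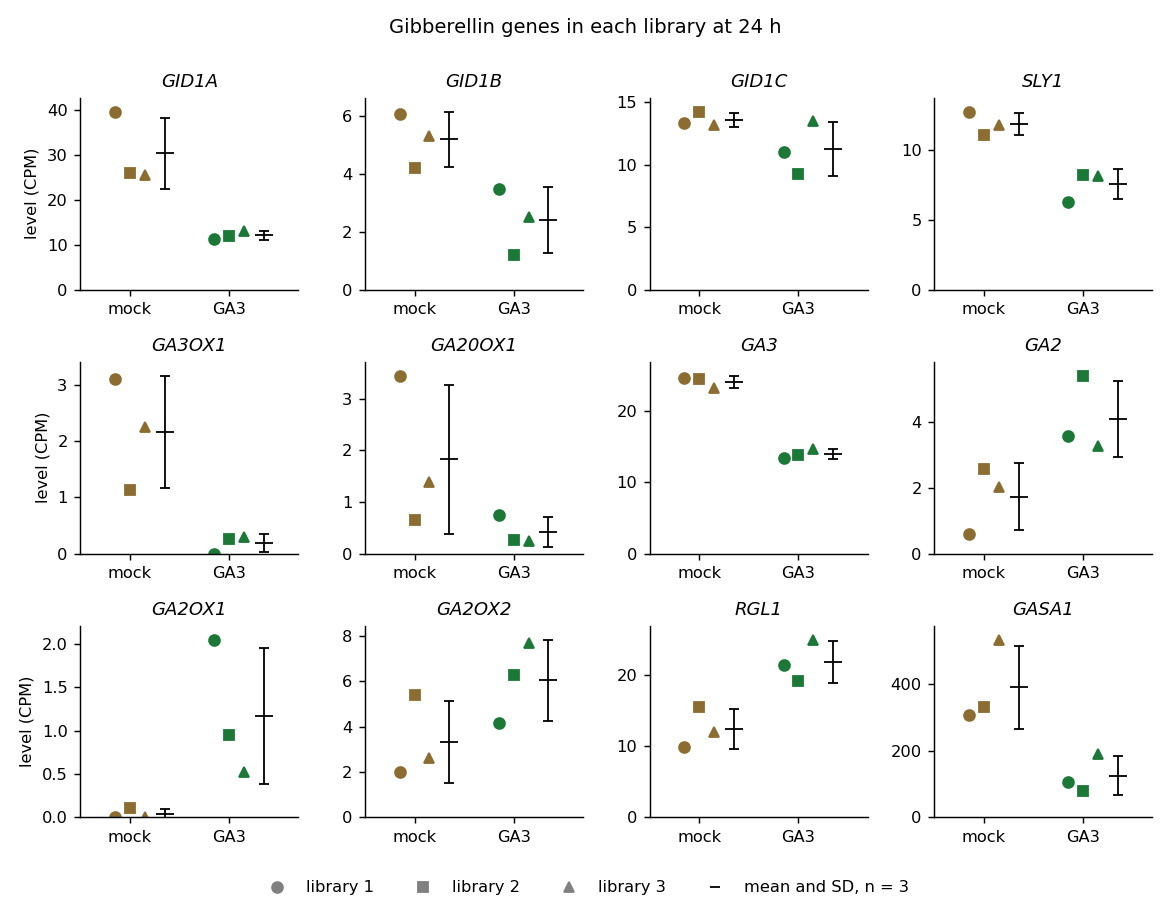
Levels in CPM (y axes, from 0) of 12 gibberellin genes in the 3 mock and 3 GA3 libraries at 24 h, a point per library with its shape for the replicate number, and the mean with SD (n = 3) in black. GID1A, GID1B, SLY1, GA3OX1, the ent-kaurene oxidase gene GA3 and GASA1 lie lower in every GA3 library, and GA2, GA2OX1 and RGL1 lie higher.

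Targets that DELLA proteins induce were lower in 7 of 8 fits, with 3 of the 8 below mock in all libraries (GID1A, GID1B and GA3OX1, where 6.91% of all genes lay so) and a median of -0.73. These members and their direction were known from earlier results of the same data, so the count is no independent evidence. The list median of log2(CPM + 1), taken relative to each gene's mean over the 6 libraries, was -0.42, -0.42 and -0.43 in the GA3 libraries and 0.69, 0.19 and 0.30 in the mock libraries. Without any of the libraries the median change stayed between -0.89 and -0.51. XERICO, a RING protein that raises abscisic acid, had 5.72, 5.2 and 5.95 CPM against 10.2, 6.88 and 5.58 CPM, with mock replicate 3 inside the GA3 range. The GRAS protein gene SCL3 had 10.2, 4.51 and 5.04 CPM against 14.2, 6.94 and 12.7 CPM, also overlapping. The bHLH gene AT5G50915 had 14.5, 38.5 and 52.8 CPM against 74.4, 52.1 and 43.2 CPM. WRKY27 alone had a fit above 0.

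The gene AGF2 (AT3G55560), an AT-hook DNA-binding protein named after its relative AGF1 in the feedback on GA3OX1, stood at 5.25, 6.93 and 9.31 CPM against 15.2, 23.4 and 24.3 CPM. The groups were apart, and untreated leaves lay with mock (26.6 ± 4.37 CPM). DESeq2 called it lower (-1.54 ± 0.38, adjusted p = 0.037, with 0.161 to 0.999 in edgeR and limma-voom), though not without GA3 replicate 1 or 2 or mock replicate 2 or 3 (adjusted p of 0.178 to 0.637).

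GASA peptides, small secreted cysteine-rich proteins of which several respond to gibberellin, lay in both directions (4 fits above 0 and 6 below of 10 tested, median -0.01). GASA1 stood at 107, 78.1 and 191 CPM with GA3 and at 307, 333 and 534 CPM with mock. All GA3 libraries were below all mock libraries (-1.64 ± 0.64, unadjusted p = 0.0239 in edgeR). GASA5 was likewise apart, with 1.44, 2.05 and 0.96 CPM against 2.96, 3.28 and 8.91 CPM. AT5G14920, a longer GASA-domain protein, had 5.07, 15.1 and 21.4 CPM against 28.9, 23.7 and 38.8 CPM, and with GASA1 and GASA5 made 3 of 10 below mock throughout (6.91% of all genes). GASA4 stood at 25.4, 33.6 and 47.8 CPM against 19.6, 26.2 and 16.3 CPM, overlapping through GA3 replicate 1 and mock replicate 2. AT3G10185, annotated to the same family, was the member above mock in all libraries, at 1.12, 0.997 and 0.672 CPM against 0.108, 0.0538 and 0.225 CPM, from 57 and 8 reads.

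Growth genes held a few members with a clear separation. PRE1, a helix-loop-helix protein that promotes cell elongation downstream of gibberellin and brassinosteroid, stood at 6, 1.52 and 1.63 CPM with GA3 and at 0.484, 0.215 and 0.405 CPM with mock. The groups were apart, and GA3 replicate 1 was far above the other GA3 libraries (3.03 ± 0.85, unadjusted p = 0.00379 in edgeR, DESeq2 adjusted p = 0.0659, with 2.08 without that library). AIF1, a bHLH protein that restrains growth, was also higher in all GA3 libraries (1.89 to 2.02 CPM against 0.36 to 1.18 CPM). The 13 tested genes of that family had 7 fits above 0 and a median of 0.15.

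Alpha-expansins, which loosen cell walls, had 10 fits above 0 of 14 tested and a median of 0.43. EXPA3 (EXP3 in the reference) stood at 27.1, 41.8 and 35.5 CPM against 12.3, 12.7 and 7.38 CPM, more than a doubling between the nearest libraries (1.69 ± 0.54, unadjusted p = 0.00843 in edgeR, DESeq2 adjusted p = 0.202). EXPA8 had 24.5, 46 and 13.2 CPM against 5.54, 10.5 and 7.74 CPM. EXPA11 and EXPA15 were apart as well, which made 4 of 14 higher in all GA3 libraries, against 7.02% of all genes. Of the 14, EXPA4 alone was lower in all of them (33.2 to 39.1 CPM against 42.7 to 75.4 CPM).

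Xyloglucan endotransglucosylases, which rejoin wall glucans, had 10 fits above 0 and 12 below of 22. XTH17 stood at 2.33, 9.81 and 18.2 CPM against 0.538, 1.56 and 0.495 CPM, apart from mock (3.55 ± 1.41, unadjusted p = 0.0286 in edgeR, with 2.81 without GA3 replicate 3 and 4.28 without mock replicate 2). The touch gene TCH4 (XTH22) showed how far libraries of a group could differ, with 44.1, 1066 and 950 CPM with GA3 and 422, 1043 and 299 CPM with mock. The list median was -1.18 in GA3 replicate 1 and 0.17 and 0.71 in the other GA3 libraries. Cell division genes had 15 fits above 0 of 17 and a median of 0.25, with CYCD3;2, a D-type cyclin, at 25.5, 25.7 and 28.1 CPM against 19.2, 18.4 and 18 CPM (0.51 ± 0.19, unadjusted p = 0.0223 in edgeR). That cyclin was the 1 of the 17 higher in every GA3 library, a share near the 7.02% of all genes.

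Floral promoters did not lie on 1 side, with 9 fits above 0 and 5 below of 14 tested and a median of 0.38. FT (AT1G65480, chromosome 1, 24331373 to 24333999), the gene disrupted in ft-10, stood at 9.16, 12.9 and 20.5 CPM with GA3 and at 15.8, 30.4 and 56.3 CPM with mock. GA3 replicate 3 exceeded mock replicate 1, so the groups overlapped (-1.27 ± 0.40, unadjusted p = 0.00801 in edgeR), and untreated leaves held 4.13 ± 0.654 CPM. Reads were counted over the whole gene, so they do not show whether an intact FT transcript was made. The MADS-box gene FUL (AGL8) had 3.86, 3.57 and 1.54 CPM against 1.29, 1.83 and 1.71 CPM, and SOC1 (AGL20) 36.5, 28.5 and 26.9 CPM against 28, 25.3 and 23.7 CPM, both overlapping. SPL9, of the same family as SPL4, and the low SPL15 and CO (44 against 20 reads and 29 against 7 reads) stood higher in all GA3 libraries. They made 3 of 14 (7.02% of all genes lay so), and SPL4 was the 1 lower in all of them (6.91%). SPL9 had 2.4 to 3.67 CPM against 0.807 to 1.88 CPM. LFY had 0 reads in the 6 libraries. Of 15 tested floral repressors 7 had fits above 0, and the median was -0.06.

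Phenylpropanoid genes, of the path from phenylalanine to lignin, lay in both directions, with more fits below 0 than above. Of 18 tested members 13 had fits below 0 and 5 above, with a median of -0.30. Below mock in all libraries lay 6 members (6.91% of all genes did so), and 1 lay above mock in all of them (7.02%). An unadjusted p under 0.05 was found for 6 members with fits below 0 (2.92% of all genes) and for 0 with fits above. The fits reached about as far above 0 as below it. The members described next all had fits below 0, and the 5 with fits above 0 are left out of that description. The entry enzyme PAL1 stood at 159, 162 and 174 CPM with GA3 and at 341, 195 and 298 CPM with mock. The GA3 libraries were nearly equal and below every mock library (-0.75 ± 0.24, unadjusted p = 0.00799 in edgeR). 4CL2, which activates the acids with coenzyme A, had 14.4, 11.8 and 11 CPM against 16.5, 16.8 and 26.8 CPM, and C4H, the second enzyme, 197, 174 and 188 CPM against 220, 201 and 315 CPM.

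FAH1 (ferulate 5-hydroxylase, toward sinapate and syringyl lignin) stood at 108, 108 and 115 CPM against 169, 186 and 304 CPM. The groups were apart, with mock replicate 3 the highest. DESeq2 called it lower (-0.99 ± 0.23, adjusted p = 0.0169, with 0.345 to 0.999 in edgeR and limma-voom), though not without GA3 replicate 1 or 2 or mock replicate 3 (adjusted p of 0.0916 to 0.135). The wall peroxidase PRX52 had 32.2, 17.4 and 27.4 CPM against 58.8, 95.6 and 179 CPM, and 1.36 ± 0.533 CPM in untreated leaves. Mock was thus the highest of these groups and GA3 at 24 h lay between (DESeq2 -2.11 ± 0.52, adjusted p = 0.037, with 0.387 to 0.999 in edgeR and limma-voom). It kept that call only without mock replicate 1, the other 5 omissions giving adjusted p of 0.0588 to 0.767. PAL2 and PAL4, close relatives of PAL1, overlapped between groups, at 94.7 to 121 CPM against 96.6 to 130 CPM for PAL2 and 9.5 to 12 CPM against 5.92 to 24.1 CPM for PAL4.

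Among other genes that DESeq2 called lower, AAP3 and CML41 also stood lower in untreated leaves than with mock. AAP3, an amino acid permease, stood at 4.65, 3.1 and 3.98 CPM with GA3, 7.15, 11.9 and 29.8 CPM with mock and 0.549 ± 0.2 CPM in untreated leaves. Its DESeq2 value of -2.05 ± 0.49 (adjusted p = 0.0257, with 0.345 to 0.999 in edgeR and limma-voom) was -1.27 and not called without mock replicate 3 (adjusted p = 0.69), nor was it called without any of the GA3 replicates. CML41, a calmodulin-like protein, had 5.44, 3.15 and 3.55 CPM against 19.1, 8.34 and 13.6 CPM, and 3.12 ± 0.943 CPM in untreated leaves. CYP82C2, a cytochrome P450 of indole-derived defence compounds, had 0 reads with GA3 and 56 with mock, at least 19.3-fold lower. CYP81D11, a P450 induced by foreign compounds, had 16 reads with GA3 and 269 with mock, and its DESeq2 value of -4.19 ± 1.07 was -4.82 without GA3 replicate 3, and -2.93 and not called without mock replicate 1 (adjusted p = 0.274). CYP81D11 and CML41 each lost their calls without 4 of the 6 libraries, mock replicates 1 and 3 among them, and CYP82C2 without 5, all but mock replicate 1.

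WRKY28, a transcription factor of defence, stood at 4.42, 3.83 and 7.73 CPM against 12.1, 16.1 and 23.1 CPM, and EXL4, an EXORDIUM-like protein, at 25.3, 25.9 and 36.5 CPM against 62.3, 69.1 and 90.1 CPM. CRF10, of the cytokinin response factor family, had 10.4, 12.9 and 12.4 CPM against 20.6, 23.6 and 24.3 CPM. In all 3 genes the groups were apart, and DESeq2 called them lower. The calls of WRKY28 and EXL4 were lost without GA3 replicate 1 or 2 or mock replicate 2 or 3, and that of CRF10 without GA3 replicate 1 or mock replicate 2 or 3 (adjusted p of 0.0818 to 0.251). ELF4-L3, a relative of the clock gene ELF4, MDP40, a microtubule-binding protein, and the Aux/IAA gene AT3G16500 (PAP1, a phytochrome-associated protein) were also called lower. ELF4-L3 kept its call only without mock replicate 3, and AT3G16500 under none of the 6 omissions (adjusted p of 0.0552 to 0.243). MDP40 rested on mock replicate 3 (6.21 CPM, against 1.56 and 0.538 CPM in the other mock libraries), and its value of -3.70 ± 0.86 was -2.29 and not called by DESeq2 without it (adjusted p = 0.733), nor was it called without GA3 replicate 1 or 3.

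Genes that DESeq2 called higher with GA3 were of varied function. XDH2, a xanthine dehydrogenase of purine breakdown, stood at 6.6, 8.13 and 12.7 CPM against 3.33, 3.33 and 3.51 CPM. The mock libraries were nearly equal and all lower. BGLU40, a beta-glucosidase, had 74.1, 91 and 92.7 CPM against 57.1, 51.3 and 42.6 CPM, and LSF2, a glucan phosphatase of starch breakdown, 52.7, 52.5 and 52.4 CPM against 37.9, 33.3 and 30.5 CPM. ABIL4, a relative of the Abl interactors of actin assembly, was 53.1 to 56.5 CPM against 30.8 to 42 CPM. Each of these calls was lost in part of the omissions. XDH2 lost its call without GA3 replicate 3 or mock replicate 2 or 3 (adjusted p of 0.0734 to 0.208), BGLU40 without GA3 replicate 2 or 3 or mock replicate 2 or 3, and LSF2 and ABIL4 without any but mock replicate 1.

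IAGLU, which joins auxin to glucose, stood at 89.7, 22 and 23.6 CPM against 12.3, 6.78 and 7.52 CPM. Its groups were apart, with GA3 replicate 1 far above the rest. The DESeq2 value of 2.35 ± 0.52 (adjusted p = 0.00976, with 0.161 to 0.999 in edgeR and limma-voom) was 1.38 and not called without that library (adjusted p = 0.145), and it was not called without mock replicate 2 or 3 either. The locus held 6075 reads on the opposite strand in the 6 libraries beside 2840 with GA3 and 522 with mock on its own. GSTU26, a tau-class glutathione transferase, and CYP86C2, a P450 of fatty acid oxidation, were called higher at low levels (1.82 to 3.2 CPM against 0.645 to 1.13 CPM, and 2.56 to 3.6 CPM against 1.02 to 1.13 CPM). GSTU26 lost its call without GA3 replicate 1 or 2 or mock replicate 1 or 3, and CYP86C2 lost it without any 1 of the 6 libraries.

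Photosynthesis genes stood a little higher with GA3, all 26 fits lying above 0, with a median of 0.32 and a range of 0.21 to 0.78. In 7 of 26 all GA3 libraries exceeded all mock libraries (7.02% of all genes did). The Rubisco small subunit gene RBCS3B had 5291, 6682 and 8688 CPM against 4632, 4587 and 3603 CPM (0.69 ± 0.27, unadjusted p = 0.0269 in edgeR), and GAPB, a Calvin cycle dehydrogenase, 2831, 3196 and 3169 CPM against 2198, 2151 and 1767 CPM. The list median by library was -0.21, 0.29 and 0.45 with GA3 and -0.05, -0.03 and -0.43 with mock, so the groups overlapped through GA3 replicate 1. RBCS copies are near-identical, and reads that match several copies equally were counted for none of them.

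Leaf senescence genes stood lower in 14 of 17 fits, with a median of -0.47. WRKY45, a transcription factor that promotes senescence, stood at 2, 1.52 and 2.54 CPM with GA3 and at 6.88, 16.9 and 11.9 CPM with mock. The groups were apart (-2.55 ± 0.79, unadjusted p = 0.00702 in edgeR, DESeq2 adjusted p = 0.102). NAP, a NAC regulator of chlorophyll loss, had 16.9, 13.3 and 9.07 CPM against 25.8, 32.1 and 15.1 CPM, overlapping through mock replicate 3. WRKY75 and PPH, the pheophytinase of chlorophyll breakdown, were also lower in all GA3 libraries, which with WRKY45 and ORE1 (NAC6) made 4 of 17, where 6.91% of all genes lay so. SAG12, the classic marker of late senescence, had 0 reads in the 6 libraries.

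Genes of abscisic acid, drought and cold had 20 fits above 0 of 23 and a median of 0.56 (0.53 leaving out CBF3, or DREB1A, with 3 reads against 0). Of the 23, 2 lay above mock in all libraries and 0 below (7.02% and 6.91% of all genes). RD29A (LTI78) stood at 78.2, 62.3 and 84.1 CPM against 58.7, 45.7 and 27.6 CPM, apart from mock (0.77 ± 0.39). GolS2, which makes the osmoprotectant galactinol, rested on GA3 replicates 1 and 2 (79.3, 28.6 and 3.6 CPM against 6.51, 8.34 and 6.57 CPM). COR413IM1, a chloroplast membrane protein induced by cold, is not a member of the list and its choice rested on these data. It had 43, 46 and 45.6 CPM against 23.2, 27.3 and 26.7 CPM, with no overlap (0.80 ± 0.20, unadjusted p = 0.00204 in edgeR, DESeq2 adjusted p = 0.0929).

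Sulfate assimilation and low-sulfur genes had 10 fits above 0 of 13 and a median of 0.62. APR2, the reductase that controls sulfate use, stood at 1261, 1245 and 820 CPM against 657, 784 and 536 CPM. All GA3 libraries were higher (0.75 ± 0.27, unadjusted p = 0.0181 in edgeR). The list median by library reached from -0.43 to 0.92 with GA3 and from -0.99 to 0.18 with mock, wide and overlapping.

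Defence and stress lists differed widely between libraries of the same group. Jasmonate genes were high in mock replicate 1, whose list median was 1.39 against -0.49 and -0.60 in the other mock libraries and -0.31 to 0.29 with GA3. LOX2, the lipoxygenase of jasmonate synthesis in plastids, had 4471, 5883 and 4687 CPM with GA3 and 12530, 3077 and 2242 CPM with mock. The median change of the 28 genes, -0.20, was 0.66 without mock replicate 1. Anthocyanin genes followed the same library, with a list median of 1.75 in mock replicate 1, and the biosynthetic gene DFR had 2.74, 24 and 13.4 CPM against 202, 21.1 and 2.61 CPM. Their median change of -1.01 was 0.55 without that library.

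Wound, touch and pattern-triggered genes were high in GA3 replicate 2 (list median 1.07, against -0.50 to 0.02 in the other 5 libraries), as the zinc finger gene STZ (ZAT10) showed with 41.3, 171 and 12.7 CPM against 27.3, 16.3 and 14.8 CPM. Their median change of 0.28 was -0.23 without GA3 replicate 2. Salicylic acid genes had 13 fits above 0 of 18 and a median of 0.32 (0.05 to 0.53 without 1 library), with 4 members above mock in all libraries (7.02% of all genes) and 1 below (6.91%). The list was highest in GA3 replicate 1 (0.60, against -0.32 to 0.02), and the marker PR1 had 504, 79.4 and 84.4 CPM with GA3 and 193, 259 and 1031 CPM with mock. Within that list AZI1, a lipid transfer protein of systemic priming, stood at 7.07, 18.9 and 20.5 CPM against 33.8, 41.6 and 170 CPM. Its groups were apart, and DESeq2 called it lower (-2.39 ± 0.62, adjusted p = 0.0498, with 0.387 to 0.999 in edgeR and limma-voom), at -1.26 and adjusted p = 1 without mock replicate 3, and it was not called without GA3 replicate 1 or 2 either. Its tandem neighbour EARLI1 had 72, 119 and 158 CPM against 143, 302 and 772 CPM, overlapping. Reads that match both tandem copies equally were counted for neither. The camalexin gene CYP71A12 had 9.21, 6.4 and 5.09 CPM against 14, 14.5 and 38.1 CPM, with no overlap. Reads that match it and its near-identical neighbour CYP71A13 equally were counted for neither.

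**Figure D4:**
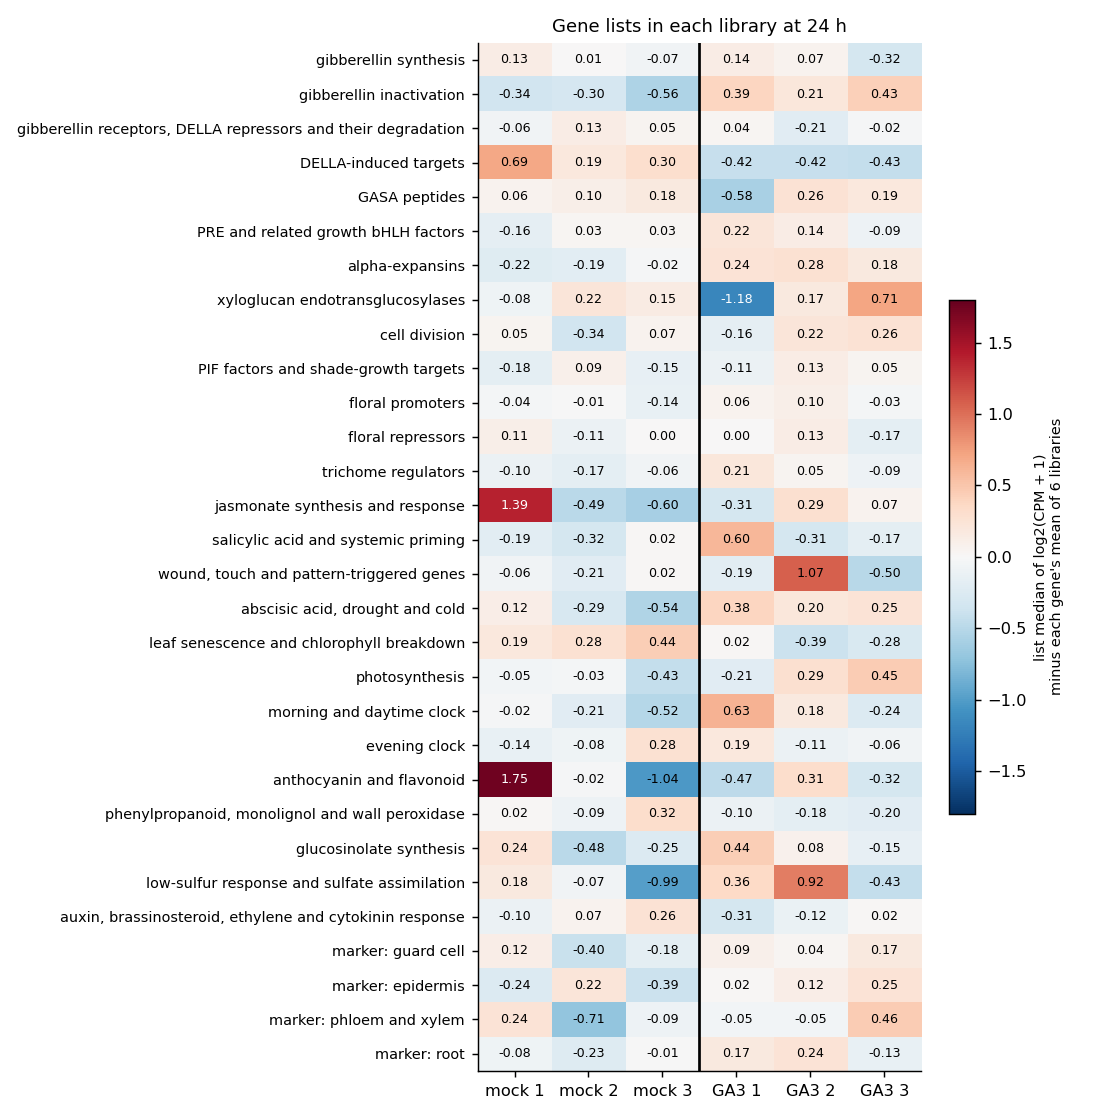
Gene lists (rows) in the 6 libraries at 24 h (columns, mock left of the black line and GA3 right of it), coloured and labelled by the median over tested members of log2(CPM + 1) minus each gene's mean over the 6 libraries. Anthocyanin (1.75) and jasmonate (1.39) genes stand out in mock replicate 1 and wound genes (1.07) in GA3 replicate 2. Medians of DELLA-induced targets, leaf senescence and phenylpropanoid genes are lower in all 3 GA3 libraries than in any mock library. Those of gibberellin inactivation, alpha-expansin and abscisic acid, drought and cold genes are higher in all 3.

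**Figure D5:**
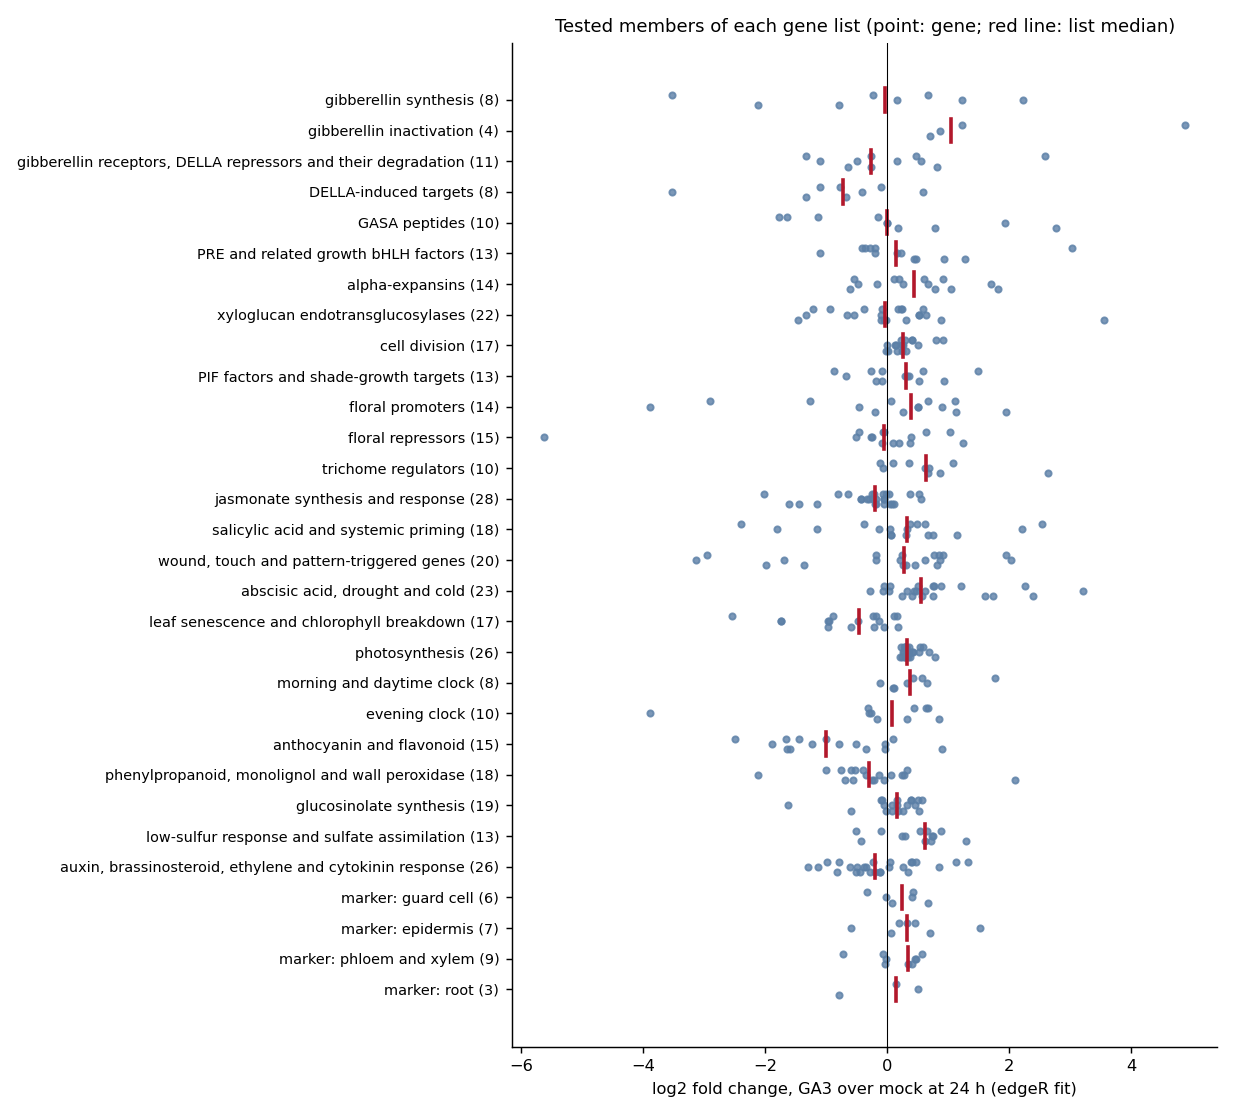
Fitted log2 fold change of GA3 over mock (x axis, edgeR) for the tested members of each gene list (rows, number tested in brackets), a point per gene with the list median in red. DELLA-induced targets have a median of -0.73 and photosynthesis genes a median of 0.32 with all 26 points right of 0. Genes with 0 reads in a group, such as FKF1 (5 reads with mock) and MAF5 (17), are plotted at their fits, without the floor of 3 reads.

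Clock genes of the morning had 7 fits above 0 of 8 (median 0.37), led by PRR9, which had 56.1, 12.9 and 5.47 CPM against 7.48, 8.71 and 5.71 CPM and rested on GA3 replicate 1. CCA1 had 293, 224 and 168 CPM against 188, 150 and 125 CPM. Both genes overlapped between groups. The other lists had medians of -0.21 to 0.64, and some of them changed sign without 1 library. Evening clock genes had a median of 0.08 (10 tested) and glucosinolate synthesis genes 0.16 (19). Auxin, brassinosteroid, ethylene and cytokinin response genes had -0.21 (26), with -0.38 to -0.02 without 1 library. PIF factors and shade-growth targets had a median of 0.30 (13 tested), which was -0.13 without GA3 replicate 3, and trichome regulators had 0.64 (10 tested), which was -0.07 without GA3 replicate 1. Of the leaf cell type markers DESeq2 called 0, and their medians were of the size of those of several lists above. Guard cell markers (6 genes) summed to 46.3 to 72.2 CPM with GA3 and 39 to 60.7 CPM with mock, epidermis markers (7) to 900 to 1070 CPM and 729 to 1190 CPM, and phloem and xylem markers (9) to 594 to 807 CPM and 481 to 849 CPM. Root markers had 3 of 6 tested and summed to 40.6 to 58.3 CPM and 33.8 to 40 CPM, with every GA3 library above every mock library. The median changes were 0.24, 0.32, 0.34 and 0.15 in that order, and their part in the differences of other genes was not tested.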

How the data were processed

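Leaf RNA was sequenced in 14 libraries, called biological replicates in the design text. The authors deposited raw read counts per gene, aligned with STAR 2.7.7a to TAIR10, per the submitters' processing notes (annotation: not given in the sources used here). Every file lists counts without strand and on each strand. The strand with most reads was used, and 4.89% to 5.35% of reads in genes lay on the other at 24 h. Rows naming no gene were left out, reads that mapped to several places among them, so 94% to 95.8% of reads entered library sizes.

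R 4.3.3 with edgeR 4.0.16 fitted all 14 libraries, 1 coefficient per group (TMM, filterByExpr, quasi-likelihood F test, Benjamini-Hochberg, threshold 0.05). SEs were derived from F (the unsigned log2 fold change over its root). DESeq2 1.42.0, limma 3.58.1 (voom), other scalings and filters, the 6 libraries alone, strand ignored, the replicate block and omission of each library were alternatives. The fits were also run on simulated counts with known folds, drawn independently for each gene. Those counts held no outlying library, so they do not decide between the tools. Folds against 0 reads use a floor of 3 reads over the group, and intervals for low reads are 95% exact and cover counting error only. Between libraries of a group, counts differed by more than sampling noise in every pair.

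Members and lists were chosen with earlier results of these data known. Named were gibberellin genes, DESeq2's calls with a symbol (up to 15 a direction), the 12 genes per direction with the smallest edgeR p (symbol, 5 CPM, groups apart), some given by count alone, and up to 4 per other list or well-known members. Any other gene named was picked after its values were seen. Gene names and start regions come from RefSeq (TAIR10.1).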

Additional observations from a re-analysis of the deposited data

How the results depend on the processing

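In the 14 alternatives fitted with edgeR or limma-voom 0 genes were called, while DESeq2 called 49 genes, 19 higher and 30 lower. DESeq2 called 195 (83 and 112) in the fit of the 6 libraries alone and 208 (98 and 110) with the replicate block. Leaving out 1 library gave 10 to 116 calls, 3 to 61 higher and 7 to 56 lower. Deviations of same-numbered libraries from their group means correlated at 0.0331, 0.309 and 0.0642, and those of differently numbered libraries at -0.257 to 0.146. These values do not settle whether the replicate numbers pair the samples. With the replicate block edgeR called 0 genes too. Of 100 tested genes named, 7 changed the sign of their fold change under some alternative. Without 1 library in turn, GA2OX6 ranged from -0.06 to 0.99, PAL4 from -0.57 to 0.59, LOX2 from -0.65 to 0.91, DFR from -3.21 to 0.18, WRKY27 from -0.27 to 0.96, RGL3 from -0.90 to 0.46 and TCH4 from -0.24 to 0.93 (log2). limma-voom gave 0.16 for LOX2 and -0.52 for TCH4, and the replicate block -0.55 for TCH4. Of 30 lists with tested members, 8 with a median of at least 0.1 changed its sign, 6 of them without 1 library as given above for receptors and DELLA, PIF, trichome, jasmonate, wound and anthocyanin genes. Glucosinolate genes stood at -0.01 without GA3 replicate 1 and root markers at -0.30 with no filter. The causes were not tested. Genes with at most 3 reads in both groups were given no fold.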
